A study of Rattus norvegicus with 6 samples.

Results

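Among the cells of the rat brain after pontine infarction, 342 cells carried the transcripts of the chemokines Ccl17 or Ccl22 together with MHC class II genes, and they are described here as Ccl17 Ccl22 gated cells. They made up 342 of 19445 cells kept from 3 infarction libraries and of 38685 kept from all 6 libraries of the series. A UMI is 1 counted RNA molecule. Barcodes under 500 UMIs or under 200 detected genes, and those with mitochondrial transcripts above 20% of their total, were left out. A member then had at least 2 UMIs of Ccl17 and Ccl22 together and at least 1 UMI each of Cd74, RT1-Da, RT1-Ba and RT1-Bb. It also had no Clec9a UMI, under 40 UMIs of C1qa, C1qb and C1qc and under 200 UMIs of S100a8 and S100a9 per 10000 UMIs, which keeps out type 1 dendritic cells, macrophages rich in complement C1q and neutrophils. The members were chosen on these values, so the levels of those genes are given as a description, without a test.

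The study prepared droplet-based single-cell RNA libraries (10x Genomics 3′ chemistry) from Sprague Dawley rats labelled as postnatal day 21. The groups are pontine infarction, an ischaemic injury of the brainstem, with 3 libraries, and sham, with 3 libraries, and no agent or genetic change is given for either. The tissue is labelled only as brain, the time after the operation is not given in the labels, and the labels speak of 3 rats with infarction but do not tie each library to an animal. P-values therefore measure the spread between libraries.

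CCL17 and CCL22 are small secreted proteins that both bind the receptor CCR4, carried mostly by T helper type 2 cells, regulatory T cells and skin-homing T cells. Dendritic cells take up antigen, cut it into peptides and show these to T cells on MHC class II molecules, whose invariant chain is Cd74 and whose rat chains are encoded by the RT1-B and RT1-D genes. Conventional dendritic cells fall into type 1, which carry Clec9a and Xcr1 and depend on Irf8, and type 2, which depend more on Irf4. Monocytes that enter inflamed tissue can also take on features of dendritic cells, and a healthy brain parenchyma holds few dendritic cells of any kind.

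In the rat genome Ccl17 and Ccl22 lie on chromosome 19 on either side of Cx3cl1, the fractalkine gene. Because the gate rests on these 2 genes, the 250 bases before their RefSeq start sites (build GRCr8) are shown, with capitals marking the match to the palindromic STAT6 motif, TTC and GAA with any 4 bases between. The Ccl17 stretch is chr19:10209896-10210145 and the Ccl22 stretch is chr19:10270360-10270609, both read on the minus strand.
Ccl17: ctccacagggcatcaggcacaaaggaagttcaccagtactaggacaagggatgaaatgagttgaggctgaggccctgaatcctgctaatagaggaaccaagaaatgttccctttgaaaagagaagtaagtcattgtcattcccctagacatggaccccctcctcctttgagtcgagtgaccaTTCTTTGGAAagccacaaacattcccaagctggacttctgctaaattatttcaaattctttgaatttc
Ccl22: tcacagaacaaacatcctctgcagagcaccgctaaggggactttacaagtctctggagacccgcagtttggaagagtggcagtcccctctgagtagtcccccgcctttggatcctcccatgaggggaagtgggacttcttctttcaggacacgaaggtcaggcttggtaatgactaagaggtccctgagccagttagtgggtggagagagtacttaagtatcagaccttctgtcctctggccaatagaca
The Ccl17 stretch held 1 match to the STAT6 motif, TTCTTTGGAA, from base -68 to base -59 counted back from the start. The Ccl22 stretch held no match. Neither stretch matched the kappa-B consensus, the AP-1 motif TGANTCA or the interferon regulatory factor motif, GAAA repeated after any 2 bases, on either strand. Of 33469 rat promoters of that length, 6.25% held the STAT6 motif, 6.33% the kappa-B consensus, 6.34% the AP-1 motif and 3.41% the interferon regulatory factor motif. A match describes letters and not a bound factor.

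Members were deep cells. The median member held 14608, 12285 and 13347 UMIs in infarction 1, 2 and 3, against medians of 9225, 7841 and 9630 UMIs over all kept cells of those libraries. Depth was not particular to members. The 3160 infarction cells within the other limits but with no Ccl17 or Ccl22 UMI had a median of 12987 UMIs. A doublet score above 0.25 marked 3 of 342 members (0.877%), against 1.93% of all kept infarction cells. Any pair of the 6 libraries shared 7 to 18 kept barcodes. Of 366 infarction cells with 2 or more Ccl17 and Ccl22 UMIs, 354 also had all 4 MHC class II genes, 348 of these had no Clec9a UMI, and the C1q and S100 limits removed 5 and 1 more.

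Gated cells were found almost only after infarction. They numbered 123 of 5977 kept cells in infarction 1 (2.06%, exact 95% interval 1.71% to 2.45%), 158 of 7401 in infarction 2 (2.13%, 1.82% to 2.49%) and 61 of 6067 in infarction 3 (1.01%, 0.770% to 1.29%). Sham 1 held 0 of 6025 and sham 2 held 0 of 6484, with exact 95% upper ends of 0.0612% and 0.0569%, and sham 3 held 1 of 6731 (0.0149%, 0.000376% to 0.0827%). By the limit of 3 counts that a count of 0 allows, sham 1 and sham 2 held shares of up to 0.0498% and 0.0463%. These intervals cover counting error only. Every infarction library lay above every sham library, and infarction 3 held a smaller share than the other 2 infarction libraries. The mean share was 1.73% ± 0.631 after infarction and 0.00495% ± 0.00858 in sham (SD over libraries), and leaving out infarction 3 gave a difference of means of 2.09 percentage points, against 1.73 with it. The exact two-sided permutation test over libraries gave p = 0.1, the smallest that 3 against 3 allows, and an edgeR fit of cell numbers gave an adjusted p of 2.36e-05. That fit ran over 5 sets of cells only, so its estimate of the spread rests on few values and its p is less firm than the fits across all genes. The share is also set by how many other cells each library caught. The gate was proposed for infarction libraries, so the sham share is a reference level and neither test is independent of that choice.

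**Figure D1:**
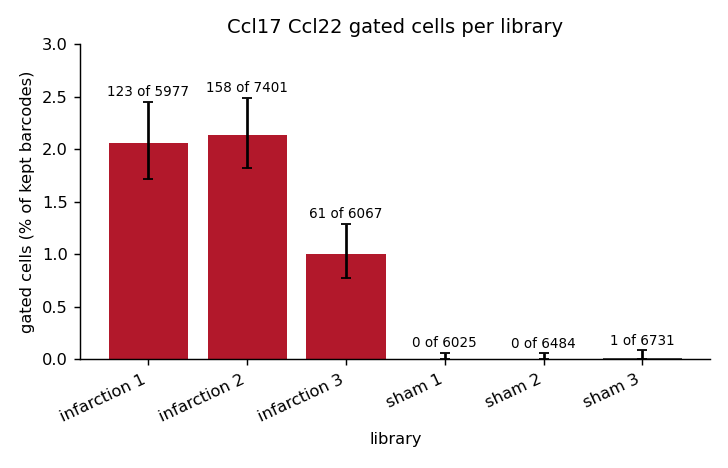
Gated cells as a percentage of kept barcodes in each library, with exact 95% binomial intervals and the cell numbers above the bars. The 3 infarction libraries lie between 1.01% and 2.13%, and the highest sham library at 0.0149%.

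Most UMIs of the 2 chemokines lay inside the gate, which its minimum of 2 UMIs largely fixes. Members held 95.2%, 91.8% and 83.8% of all Ccl17 UMIs of the kept cells in infarction 1, 2 and 3, and 92.6%, 91.8% and 77.8% of all Ccl22 UMIs. Cells outside the gate with a UMI were not rare beside the members: 184 of 19103 other kept infarction cells had a Ccl17 UMI, against 302 members, and 61 had a Ccl22 UMI, against 117 members. Of these, 7 had 5 or more Ccl17 UMIs and 4 had 5 or more Ccl22 UMIs. In infarction 3, 43 members and 45 other cells had a Ccl17 UMI, and 31 members and 35 other cells a Ccl22 UMI. All kept sham cells together had 3, 4 and 10 Ccl17 UMIs and 2, 1 and 0 Ccl22 UMIs in sham 1, 2 and 3. In sham 3 the single gated cell carried 3 of those Ccl17 UMIs. As a measure of free RNA in the droplets, a set of oligodendrocyte-marker cells from the infarction libraries (21, 75 and 187 cells, with shallower medians of 1687, 882 and 1286 UMIs) had a Ccl17 UMI in 0%, 0% and 0.535% of cells and a Ccl22 UMI in none.

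Within the gate Ccl17 was the more widespread chemokine. It was detected in 94.3%, 90.5% and 70.5% of members in infarction 1, 2 and 3, and Ccl22 in 23.6%, 36.1% and 50.8%. After thinning every cell to 5000 UMIs, which left out 1, 4 and 2 shallower members, these shares were 83.6%, 73.4% and 59.3% for Ccl17 and 18.9%, 28.6% and 39.0% for Ccl22. Over all members, 225 cells had Ccl17 alone, 77 had both and 40 had Ccl22 alone, and 274 of 342 had more Ccl17 than Ccl22. Infarction 3 stood apart in its make-up, since 18 of its 61 members had Ccl22 alone, against 7 of 123 in infarction 1 and 15 of 158 in infarction 2. The summed level of Ccl17 followed the order of its shares and that of Ccl22 did not, being highest in infarction 2, with Ccl17 at 958, 525 and 313 CPM and Ccl22 at 98.5, 285 and 249 CPM in infarction 1, 2 and 3, where CPM is the gene's UMIs per 1000000 UMIs of the set in that library. Across the 342 cells the UMIs of Ccl17 and Ccl22, scaled to depth, had a Spearman rho of -0.23, which is a description only, because a gate on the sum of 2 genes lowers their correlation.

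**Figure D2:**
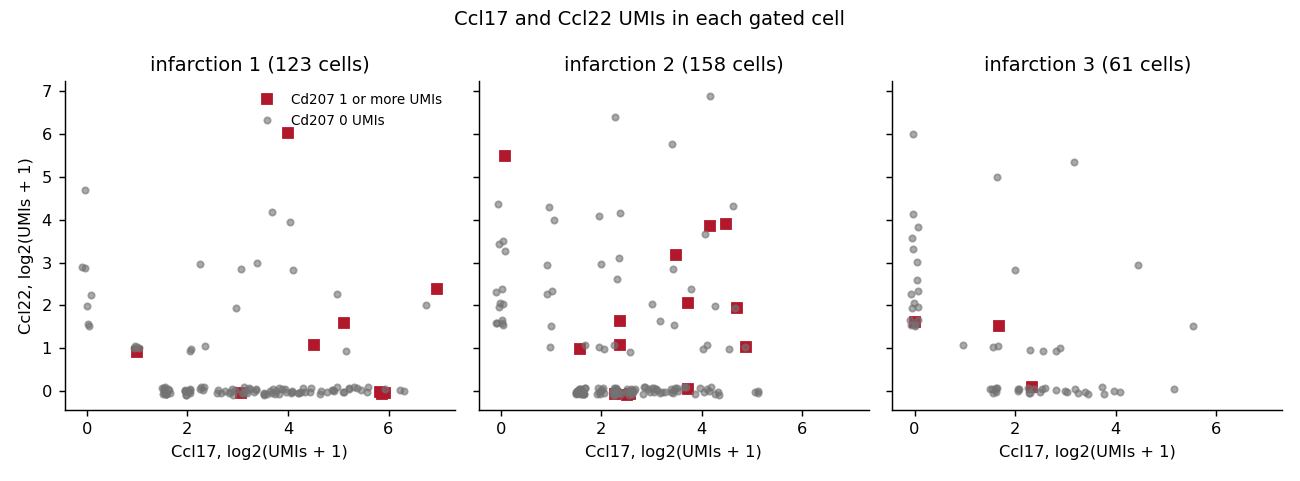
Ccl17 against Ccl22 in each of the 342 gated cells, as log2(UMIs + 1) with a small random offset, one panel per infarction library. Squares are the 26 cells with at least 1 Cd207 UMI. Most cells lie along the Ccl17 axis, and infarction 3 has 18 of 61 cells on the Ccl22 axis.

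Cells near the threshold of 2 chemokine UMIs were as follows. The 67 members with exactly 2 UMIs had 10477 CPM of Cd74 and 446 CPM of Mfge8, the 144 cells just outside with exactly 1 UMI had 9134 and 219.6 CPM, and the 3160 cells with none but the same other limits had 5100.1 and 41.0 CPM. The 204 members with 5 or more UMIs had 13457 CPM of Cd74 and 969.8 CPM of Mfge8. Cd207 did not follow that order, at 137 CPM with 5 or more UMIs, 8.28 CPM with exactly 2 and 23.7 CPM with 1.

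Members were compared with 3 other sets of the same infarction libraries, each with at most 1 Ccl17 or Ccl22 UMI. The Clec9a set (140, 150 and 157 cells) had the same MHC class II genes and at least 1 Clec9a UMI, and it carried the type 1 dendritic genes Xcr1, Cadm1, Batf3 and Irf8. The Fcnb Vcan set (801, 1120 and 844 cells) had a UMI each of Fcnb and Vcan, which mark monocytes, and its summed macrophage markers were the highest of the 4 sets. The C1q-high set (900, 1701 and 1006 cells) had at least 40 C1q UMIs per 10000, and it carried the microglial genes Sall1 and P2ry12. UMIs were summed per set and library and fitted with edgeR with the library as a block, and genes of either gate were not tested. The 3 comparisons share the gated cells and are not independent of each other. All 3 gated values lay above all 3 of the other set for 26.9% of tested genes and below for 23.6% against the Clec9a set, for 27.6% and 16.8% against the Fcnb Vcan set, and for 17.3% and 41.1% against the C1q-high set.

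The 5 markers given for these cells were Ccl17, Ccl22, RT1-Bb, Cd74 and Ramp3, and the first 4 belong to the gate. RT1-Bb stood at 7642, 5719.8 and 4891 CPM in gated cells, against 8688, 6865 and 7533 CPM in the Clec9a set and 614 to 670.1 CPM and 211 to 330.0 CPM in the Fcnb Vcan and C1q-high sets. Cd74 was likewise at 13008, 12714 and 11201 CPM in gated cells and 14802, 14837 and 15984 CPM in the Clec9a set. For Cd74 every gated library lay below every Clec9a library, and for RT1-Bb the ranges overlapped. The gate requires both genes.

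Ramp3, a receptor-activity-modifying protein that turns the calcitonin-receptor-like receptor into an adrenomedullin receptor, is the marker that the gate did not use. It was at 253, 260.1 and 188 CPM in gated cells, against 48.7, 85.0 and 69.9 CPM in the Clec9a set, 10.7, 12.6 and 10.8 CPM in the Fcnb Vcan set and 1.29, 2.78 and 3.41 CPM in the C1q-high set. The gated libraries overlapped with none of these. Its log2 fold changes were 1.75 ± 0.18, 4.22 ± 0.11 and 6.87 ± 0.35 (SE), with edgeR adjusted p of 6.11e-05, 3.01e-13 and 1.47e-04. A Ramp3 UMI was found in 85.4%, 84.2% and 72.1% of members, against 0%, 2.67% and 2.67% of the oligodendrocyte-marker cells, and in 61.5%, 60.4% and 40.7% of thinned members. Ramp1, its paralogue of the CGRP receptor, went the other way, at 21.7, 20.5 and 16.2 CPM in gated cells against 68.0, 60.2 and 48.1 CPM in the Clec9a set (log2 fold change -1.64 ± 0.17 (SE), edgeR adjusted p = 1.51e-08).

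The label dendritic-like held for part of the dendritic cell genes. The list of dendritic cell identity genes had 10 of 16 tested members higher in gated cells than in the Fcnb Vcan set and 0 lower, where 16.3% of all tested genes were higher and 17.8% lower (list median log2 fold change 2.21, all genes 0.01). Against the C1q-high set 11 of 16 were higher and 4 lower (background 21.3% and 22.9%, list median 2.57, all genes -0.04). Members had to carry MHC class II UMIs, and cells of the Fcnb Vcan and C1q-high sets did not. How far this choice of cells sets these counts was not tested. Against the Clec9a set 4 of 16 were higher and 12 lower (background 22.4% and 22.6%, list median -1.81, all genes -0.01).

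Flt3, the receptor for the growth factor that conventional dendritic cells need, was low in gated cells, at 2.96, 4.89 and 4.04 CPM, against 32.5, 37.6 and 39.0 CPM in the Clec9a set (log2 fold change -3.22 ± 0.27 (SE), edgeR adjusted p = 2.35e-10). It was still above the 0.178 to 0.450 CPM of the Fcnb Vcan set (log2 fold change 3.49 ± 0.59 (SE), edgeR adjusted p = 2.40e-04), though only 4.88% to 6.56% of members had a UMI. Zbtb46, a transcription factor of conventional dendritic cells, was at 4.43, 4.89 and 8.09 CPM in gated cells, against 0.0890, 0.0806 and 0.0899 CPM in the Fcnb Vcan set (log2 fold change 5.63 ± 0.65 (SE), edgeR adjusted p = 5.65e-06), and the Clec9a set had 5.56, 4.30 and 4.54 CPM, with no test because the gene was too low there.

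Irf4 and Irf8, the transcription factors of the type 2 and type 1 lines, separated gated cells from the Clec9a set. Irf4 was at 22.2, 18.1 and 18.2 CPM in gated cells, against 1.71, 1.08 and 2.27 CPM in the Clec9a set (log2 fold change 3.44 ± 0.36 (SE), edgeR adjusted p = 1.70e-08). Irf8 was at 40.9, 47.9 and 61.7 CPM in gated cells, against 855, 929 and 877 CPM in the Clec9a set (log2 fold change -4.24 ± 0.10 (SE), edgeR adjusted p = 5.55e-21). Neither pair of ranges overlapped. The 2 sets were divided by Clec9a, a type 1 gene, and the part of that choice in these differences was not tested. In the Fcnb Vcan set Irf8 was at 46.9, 53.9 and 61.4 CPM, which was not called against gated cells (edgeR adjusted p = 0.0965, 0.0322 without infarction 3, 0.0416 without the filter on low counts and 0.0127 with at most 10% mitochondrial UMIs).

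Clec10a, a C-type lectin of type 2 and monocyte-derived dendritic cells, was at 654, 733 and 501 CPM in gated cells, against 48.7 to 102 CPM, 95.3 to 108 CPM and 66.3 to 87.2 CPM in the Clec9a, Fcnb Vcan and C1q-high sets. Log2 fold changes were 3.08 ± 0.23, 2.46 ± 0.11 and 3.31 ± 0.12 (SE), with edgeR adjusted p of 7.06e-04, 6.66e-08 and 2.31e-09. It was detected in 81.3%, 84.2% and 73.8% of members and in 0%, 4% and 1.07% of oligodendrocyte-marker cells, and in 70.5%, 68.8% and 55.9% of thinned members. Most Clec10a UMIs lay outside the gate, since members held 19.7%, 16.9% and 6.57% of them among kept cells of infarction 1, 2 and 3. The 144 cells just outside the gate with exactly 1 chemokine UMI had 441 CPM of Clec10a.

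Mfge8 stood first among named genes outside the gate when gated cells and all other infarction cells together were compared by the log2 ratio of mean CPM + 5, which is a description. The added 5 CPM favours abundant genes: Mfge8 averaged 723 CPM in gated cells and 27.7 CPM in the other cells, and Cd207, with a larger plain ratio, 80.9 and 0.576 CPM. Its product, lactadherin, bridges dying cells to integrins of the cells that engulf them. Mfge8 was at 528, 1018 and 624 CPM in gated cells, against 3.85, 6.45 and 10.4 CPM in the Clec9a set, 3.47, 9.59 and 10.2 CPM in the Fcnb Vcan set and 30.3, 47.0 and 43.8 CPM in the C1q-high set. The log2 fold changes were 6.61 ± 0.18, 6.42 ± 0.26 and 4.39 ± 0.11 (SE), with edgeR adjusted p of 2.28e-11, 2.50e-04 and 8.95e-13. Of 342 members 254 had a UMI of it (71.5%, 79.1% and 67.2%, and 50.8%, 71.4% and 55.9% after thinning), against 0%, 12% and 12.8% of oligodendrocyte-marker cells. Members held 47.4%, 45.8% and 28.9% of its UMIs among kept cells of infarction 1, 2 and 3. The gene is not restricted to these cells, since sham libraries, which held 1 gated cell, had 71112 to 76294 Mfge8 UMIs.

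**Figure D3:**
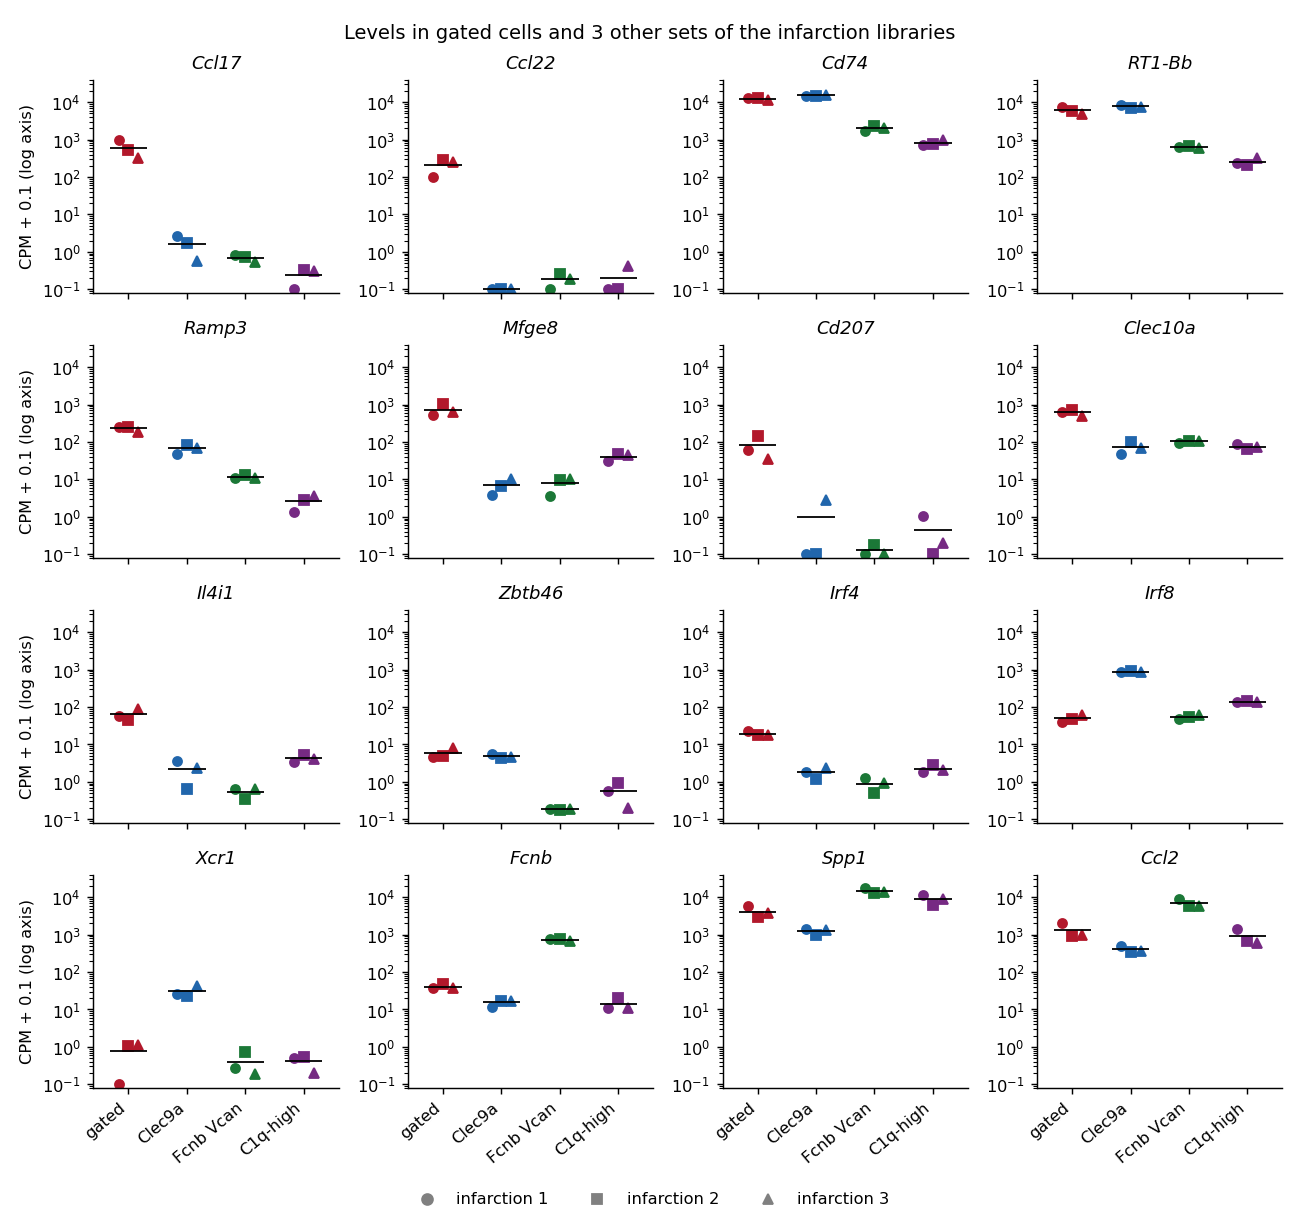
Level of 16 genes, as CPM + 0.1 on a log axis, in gated cells and in the Clec9a, Fcnb Vcan and C1q-high sets. Each point is 1 infarction library and the line is the mean. Ramp3, Mfge8, Cd207, Clec10a, Il4i1 and Irf4 are higher in gated cells than in every library of the other sets, and Irf8 and Xcr1 are highest in the Clec9a set.

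Against the Clec9a set, the other MHC class II-rich set, 1653 of 7395 tested genes were higher in gated cells and 1672 lower. Type 1 dendritic cell genes were lower in gated cells: 11 of 12 tested genes of the type 1 dendritic cell list were lower, and 1 was higher (list median log2 fold change -2.94). Members could hold no Clec9a UMI and the Clec9a set needed at least 1. How far this choice of cells sets the count of type 1 genes was not tested. Xcr1, the receptor of the chemokine XCL1, was at 0, 0.978 and 1.01 CPM in gated cells, against 26.5, 23.1 and 42.2 CPM in the Clec9a set (log2 fold change -5.48 ± 0.43 (SE), edgeR adjusted p = 9.75e-11). Cadm1, an adhesion molecule of that line, was at 0.985, 3.91 and 3.03 CPM in gated cells, against 44.9, 60.8 and 66.7 CPM (log2 fold change -4.47 ± 0.27 (SE), edgeR adjusted p = 6.88e-13).

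Tlr11 and Tlr12, endosomal receptors for microbial profilin, were also near zero in gated cells. Tlr11 had no UMI in gated cells, against 21.8, 26.9 and 25.9 CPM in the Clec9a set, at least 42.0-fold lower with a floor of 3 UMIs over the gated cells. Cxcr3, a receptor of interferon-induced chemokines, had none against 32.1, 35.5 and 34.0 CPM (at least 57.2-fold lower), and Gcsam, a signalling protein of lymphoid cells, none against 29.5, 25.3 and 29.95 CPM (at least 47.7-fold lower).

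Ctse, the aspartic protease cathepsin E, was at 5.91, 2.44 and 4.04 CPM in gated cells, against 491, 437 and 462 CPM (log2 fold change -6.83 ± 0.16 (SE), edgeR adjusted p = 3.25e-21). Slpi, a secreted protease inhibitor, was at 81.8, 71.9 and 28.3 CPM in gated cells, against 9226, 15672 and 14920.3 CPM (log2 fold change -7.69 ± 0.58 (SE), edgeR adjusted p = 0.0103), and without infarction 2 its adjusted p was 0.11. The other 4 of the 10 most lowered genes, Qprt, Parm1, Kdr and Tspan8, lay at 0 to 1.47 CPM in gated cells and 25.3 to 121 CPM in the Clec9a set.

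Among the 10 genes with the highest fold over the Clec9a set, Mfge8 was followed in level by Slc7a11, the cystine importer, at 125, 124 and 179 CPM in gated cells against 4.70, 3.76 and 2.72 CPM (log2 fold change 5.17 ± 0.21 (SE), edgeR adjusted p = 2.66e-16). Cavin1, a coat protein of caveolae, was at 62.1, 52.8 and 118 CPM in gated cells against 0, 0 and 0.908 CPM (log2 fold change 7.66 ± 0.37 (SE), edgeR adjusted p = 4.05e-15), and Vdr, the vitamin D receptor, at 56.2, 51.3 and 22.2 CPM against 0.428, 3.23 and 0.908 CPM (log2 fold change 4.82 ± 0.35 (SE), edgeR adjusted p = 5.65e-11). Both ranges stood apart, as the choice of the 10 genes required. Tnip3, an inhibitor of NF-kappa-B signalling, was at 17.7, 17.6 and 44.5 CPM in gated cells and had no UMI in the Clec9a set (at least 56.8-fold higher, floor of 3 UMIs over the set). Lad1, a filament-anchoring protein of epithelia, was at 17.7, 17.6 and 43.5 CPM against none (at least 56.0-fold higher), and Cxcl11, a ligand of CXCR3, at 13.3, 9.29 and 38.4 CPM against none (at least 43.4-fold higher), its 84 UMIs lying in 9 cells. Cacnb3 and Htra3 were the remaining 2 besides Cd207, with log2 fold changes of 6.68 and 5.22. Of 342 members, 183 had a Slc7a11 UMI, 128 Vdr, 79 Cavin1, 53 Htra3, 38 Cacnb3, 36 Tnip3 and 34 Lad1.

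Against the Fcnb Vcan set, 1468 of 8982 tested genes were higher in gated cells and 1599 lower. Monocyte and macrophage genes were lower: 4 of 5 tested monocyte markers and 7 of 11 tested macrophage markers, with 1 macrophage marker higher. The Fcnb Vcan set was chosen on 2 monocyte genes, and how far that sets these counts was not tested. Spp1, which encodes osteopontin, was at 5721, 2928 and 3821 CPM in gated cells, against 17879, 13099 and 13923 CPM (log2 fold change -2.03 ± 0.11 (SE), edgeR adjusted p = 3.82e-05). A Spp1 UMI was found in 94.3%, 88.6% and 90.2% of members and in 71.4%, 69.3% and 74.3% of the shallower oligodendrocyte-marker cells, and the part of free RNA in the Spp1 level of gated cells was not tested. Csf1r, the receptor of macrophage colony-stimulating factor, was at 269, 290.4 and 258 CPM in gated cells against 261, 293 and 281 CPM (edgeR adjusted p = 0.0842, and 0.0159 without the filter on low counts).

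Hypoxia and glycolysis genes were lower in gated cells in 21 of 24 tested members and higher in none, with a list median log2 fold change of -0.99. Ldha, lactate dehydrogenase A, was at 1261, 1402 and 1342 CPM in gated cells, against 2292, 2153 and 1926 CPM in the Fcnb Vcan set (log2 fold change -0.81 ± 0.07 (SE), edgeR adjusted p = 3.06e-07). Against the Clec9a set the same list had 13 of 21 tested members higher and 3 lower, with Ldha at 772, 823 and 713 CPM there (log2 fold change 0.74 ± 0.07 (SE), edgeR adjusted p = 7.87e-10). Gated cells lay between the 2 sets for Ldha. Lysosome genes (14 of 20 tested lower, 1 higher) and lipid-handling macrophage genes (13 of 18 lower, 1 higher) were also below the Fcnb Vcan set, and above the Clec9a set (12 of 18 higher and 4 lower, and 13 of 17 higher and 0 lower). Over all tested genes 16.3% were higher and 17.8% lower against the Fcnb Vcan set, and 22.4% and 22.6% against the Clec9a set.

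The 10 most lowered genes against the Fcnb Vcan set included Nos2, the inducible nitric oxide synthase, at 2.46, 0.489 and 1.01 CPM in gated cells against 34.1, 15.5 and 16.5 CPM (log2 fold change -4.19 ± 0.32 (SE), edgeR adjusted p = 5.19e-08). Thbs1, the matrix protein thrombospondin 1, was at 1.97, 0.978 and 6.06 CPM against 69.3, 39.6 and 62.7 CPM (log2 fold change -4.67 ± 0.27 (SE), edgeR adjusted p = 4.60e-09). F13a1, the A chain of coagulation factor XIII, was at 3.45, 6.35 and 0 CPM against 60.8, 53.6 and 45.6 CPM (log2 fold change -3.95 ± 0.30 (SE), edgeR adjusted p = 2.65e-06). Ranges did not overlap for any of these, as the choice of the 10 genes required. Hp, Krt75, Chi3l1, Clec4d, Prg4 and Mcemp1 had log2 fold changes of -5.03, -4.70, -4.54, -3.85, -3.58 and -3.46, and Slpi had -5.09 (edgeR adjusted p = 0.0255, but 0.207 without infarction 1 and 0.1 without infarction 3).

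On the higher side stood Il4i1, a secreted amino acid oxidase that limits T cell growth, at 56.7, 46.0 and 87.9 CPM in gated cells against 0.534, 0.242 and 0.539 CPM in the Fcnb Vcan set (log2 fold change 6.99 ± 0.23 (SE), edgeR adjusted p = 6.56e-12). Tbc1d4, a GTPase-activating protein, was at 28.1, 26.9 and 80.9 CPM against 0.178, 0.161 and 0.629 CPM (log2 fold change 6.93 ± 0.28 (SE), edgeR adjusted p = 5.23e-11). Klrc2 and Klri1, lectin-like receptor genes best known from natural killer cells, were at 18.7, 28.4 and 70.8 CPM and 46.8, 28.4 and 30.3 CPM in gated cells, against at most 0.623 CPM in the Fcnb Vcan set (log2 fold changes 7.52 ± 0.33 and 5.98 ± 0.27, SE). Nck2, Adcy5 and Lad1 had log2 fold changes of 6.90, 6.74 and 6.23. Each of these genes was detected in a minority of the 342 members. Il4i1 had a UMI in 81, Tbc1d4 in 74, Adcy5 in 72, Klri1 in 62, Nck2 in 53, Klrc2 in 41 and Lad1 in 34. Ly6d had no UMI in the Fcnb Vcan set and 2.46, 6.84 and 139 CPM in gated cells (at least 575-fold higher), but 1 cell held 56.7% of its 157 UMIs, 11 members had any, and its edgeR adjusted p was 0.221 without the library block.

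Against the C1q-high set, 2046 of 9587 tested genes were higher in gated cells and 2197 lower. Microglial genes were lower in all 6 tested members of the microglia list. Sall1, a transcription factor of microglia, had 1 UMI over all gated cells and was at 0, 0.489 and 0 CPM there, against 45.3, 86.1 and 69.2 CPM in the C1q-high set (log2 fold change -8.05 ± 0.40 (SE), edgeR adjusted p = 4.91e-11).

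Of the 10 most lowered genes, 8 had no UMI in gated cells. Cxcl13, the B cell chemokine, was at 37.6, 32.8 and 43.9 CPM in the C1q-high set (at least 64.4-fold lower in gated cells). Sgce, Nav3, Tal1, Gal3st4, Prickle2, Col4a4 and Cxcl17 were at least 34.0-fold to 58.6-fold lower, and Filip1 had a log2 fold change of -7.28. Cell cycle genes were lower in 28 of 33 tested members and higher in none (list median -2.17), while against the Fcnb Vcan set 12 of 30 were higher and 0 lower, and against the Clec9a set 9 of 25 were higher and 4 lower. Over all tested genes 21.3%, 16.3% and 22.4% were higher and 22.9%, 17.8% and 22.6% lower in that order of sets.

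Among the genes with the highest fold over the C1q-high set, Klrb1a, another lectin-like receptor gene, was at 138, 119.8 and 130.4 CPM in gated cells against 1.02, 1.90 and 1.76 CPM (log2 fold change 6.64 ± 0.20 (SE), edgeR adjusted p = 9.68e-13). Cdh17, a cadherin, was at 43.8, 46.4 and 63.7 CPM against 0, 0.146 and 0.517 CPM (log2 fold change 8.21 ± 0.35 (SE), edgeR adjusted p = 1.11e-10). Vdr was at 56.2, 51.3 and 22.2 CPM against 0.542, 0.804 and 0.207 CPM (log2 fold change 6.59 ± 0.27 (SE), edgeR adjusted p = 3.13e-12). Klri1, Lad1, Klrc2 and Adcy5 had log2 fold changes of 8.79, 8.67, 7.35 and 7.12, and Ly6d one of 9.94 on the few cells named above. A Klrb1a UMI was found in 200 of 342 members and a Cdh17 UMI in 112. Normalization centres the 3 fits differently: the median log2 fold change over all tested genes was -0.04 in this fit and -0.27 on plain CPM, against 0.01 and 0.13 for the Fcnb Vcan set and -0.01 and 0.04 for the Clec9a set.

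Other ligands set gated cells apart from the Fcnb Vcan set. There 9 of 16 tested chemokines were lower and 1 higher, where 17.8% of all tested genes were lower and 16.3% higher. Ccl2, the main attractant of monocytes, was at 2006, 909.7 and 998 CPM in gated cells, against 8979, 5759 and 5792 CPM in the Fcnb Vcan set (log2 fold change -2.59 ± 0.10 (SE), edgeR adjusted p = 8.80e-07). Ccl7, a related attractant, was at 422, 187 and 184 CPM against 2369.5, 1421 and 1972 CPM (log2 fold change -3.04 ± 0.21 (SE), edgeR adjusted p = 0.00218). The chemokine that was higher was Cxcl16, the ligand of CXCR6, at 317, 295 and 266 CPM against 61.1, 65.9 and 54.9 CPM (log2 fold change 2.13 ± 0.08 (SE), edgeR adjusted p = 2.59e-11). It was also above the Clec9a set (log2 fold change 2.05 ± 0.12 (SE), edgeR adjusted p = 3.21e-11) and the C1q-high set (log2 fold change 0.73 ± 0.11 (SE), edgeR adjusted p = 1.21e-04).

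Against the C1q-high set 6 of 17 tested chemokines were higher and 5 lower, where 21.3% and 22.9% of all tested genes were. Against the Clec9a set 6 of 14 were higher and 1 lower, where 22.4% and 22.6% of all tested genes were. Ccl3, a chemokine of monocytes and macrophages, was at 322, 187 and 176 CPM in gated cells, against 3524, 2489 and 3147 CPM in the C1q-high set (log2 fold change -3.51 ± 0.16 (SE), edgeR adjusted p = 2.88e-05). Ccl19 and Ccl20 had no UMI in any gated cell.

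Of the cytokines, Il1b, interleukin-1 beta, was at 774, 502 and 287 CPM in gated cells, against 274, 113 and 98.0 CPM in the Fcnb Vcan set (log2 fold change 1.60 ± 0.12 (SE), edgeR adjusted p = 2.97e-05, and 0.153 without the library block). Il12b and Il6 were at 0 to 1.01 CPM and 0.493 to 2.44 CPM in gated cells, and Il6 was lower than the 27.5 to 47.5 CPM of the C1q-high set (log2 fold change -4.48 ± 0.37 (SE), edgeR adjusted p = 5.77e-08). Vegfa, the endothelial growth factor, was at 433, 333 and 292 CPM in gated cells, against 100.05, 87.7 and 82.1 CPM in the Clec9a set (log2 fold change 1.91 ± 0.10 (SE), edgeR adjusted p = 1.90e-14) and 20.5, 22.2 and 22.7 CPM in the C1q-high set (log2 fold change 4.27 ± 0.15 (SE), edgeR adjusted p = 3.23e-09). In the Fcnb Vcan set it was at 277, 291 and 258 CPM (edgeR adjusted p = 0.109, and 0.00608 without infarction 3).

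Among receptors, Ccr4, the receptor of CCL17 and CCL22, had no UMI in any gated cell. Il2rg, the common gamma chain of interleukin receptors, was at 138, 120.3 and 135 CPM in gated cells, against 13.3, 12.4 and 7.72 CPM in the Clec9a set (log2 fold change 3.51 ± 0.18 (SE), edgeR adjusted p = 1.19e-14) and 57.7, 47.2 and 39.7 CPM in the Fcnb Vcan set (log2 fold change 1.30 ± 0.11 (SE), edgeR adjusted p = 3.22e-07). Csf2ra, the GM-CSF receptor alpha chain, was at 232, 238 and 235 CPM in gated cells, 242, 251 and 239.6 CPM in the Clec9a set and 255, 233 and 227 CPM in the Fcnb Vcan set, with no call against either (edgeR adjusted p = 0.313 and 0.101, the second 0.0237 without infarction 3 and 0.022 without the filter on low counts), and above the 60.5, 52.3 and 55.1 CPM of the C1q-high set (log2 fold change 2.32 ± 0.10 (SE), edgeR adjusted p = 7.40e-12). The list of GM-CSF and interleukin-4 response genes had 13 of 17 tested members higher and 1 lower against the Clec9a set, 5 of 22 higher and 6 lower against the Fcnb Vcan set, and 15 of 20 higher and 3 lower against the C1q-high set. Over all tested genes the shares were 22.4% higher and 22.6% lower against the Clec9a set, 16.3% and 17.8% against the Fcnb Vcan set, and 21.3% and 22.9% against the C1q-high set, so the count against the Fcnb Vcan set was near the background.

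Maturation and migration genes were higher in 15 of 20 tested members against the Clec9a set (3 lower) and in 15 of 22 against the Fcnb Vcan set (3 lower). Against the C1q-high set 13 of 22 were higher and 4 lower. Over all tested genes 22.4%, 16.3% and 21.3% were higher and 22.6%, 17.8% and 22.9% lower in that order of sets. Cd86, a costimulatory ligand of CD28, was at 149.8, 132 and 149 CPM in gated cells, against 67.6, 47.3 and 68.1 CPM in the Clec9a set, 25.5, 34.4 and 20.6 CPM in the Fcnb Vcan set and 109, 80.6 and 102 CPM in the C1q-high set. Its log2 fold changes were 1.19 ± 0.12, 2.28 ± 0.17 and 0.83 ± 0.10 (SE), with edgeR adjusted p of 8.26e-09, 1.55e-05 and 4.20e-06. Cd80, the other CD28 ligand, was lower in level but had log2 fold changes of 1.88, 1.86 and 1.95.

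Cd40, the receptor of the T cell ligand CD154, was at 73.9, 49.9 and 130.4 CPM in gated cells, against 18.0, 7.53 and 21.8 CPM in the Clec9a set (log2 fold change 2.35 ± 0.18 (SE), edgeR adjusted p = 3.02e-11) and 97.1, 67.5 and 83.5 CPM in the C1q-high set (edgeR adjusted p = 0.546). Cd83, a surface marker of mature dendritic cells, was at 459.6, 419.9 and 359.9 CPM in gated cells, against 129, 135 and 105 CPM in the Clec9a set (log2 fold change 1.70 ± 0.09 (SE), edgeR adjusted p = 4.09e-14) but 1253, 955 and 1234 CPM in the C1q-high set (log2 fold change -1.21 ± 0.10 (SE), edgeR adjusted p = 9.93e-07). Ccr7, which guides mature dendritic cells to lymph nodes, was at 2.96, 3.42 and 8.09 CPM in gated cells, with a UMI in 17 of 342 members. Of the other maturation markers, Fscn1 had a UMI in 23 members, and Lamp3 and Ccl19 had none in any. Relb had 17 UMIs in members without Ccr7 and 0 in members with it.

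Genes of the list of NF-kappa-B subunits and feedback genes were more often higher than lower in gated cells. It had 10 of 16 tested members higher and 1 lower against the Clec9a set, 9 of 18 and 2 against the Fcnb Vcan set, and 11 of 18 and 4 against the C1q-high set. Over all tested genes the shares were 22.4% higher and 22.6% lower, 16.3% and 17.8%, and 21.3% and 22.9% in that order. The lower count against the C1q-high set was near its background. Rel, which encodes the subunit c-Rel, was at 153, 118 and 128 CPM in gated cells, against 65.8, 47.9 and 55.8 CPM, 31.9, 25.1 and 22.7 CPM and 80.9, 41.4 and 60.2 CPM in the Clec9a, Fcnb Vcan and C1q-high sets, with log2 fold changes of 1.19 ± 0.12, 2.18 ± 0.11 and 1.43 ± 0.12 (SE). Nr4a3, an orphan nuclear receptor induced on activation, was at 326, 174 and 291 CPM in gated cells, against 56.9, 44.1 and 55.4 CPM, 10.4, 7.57 and 9.53 CPM and 17.1, 9.29 and 12.8 CPM in the same sets, with log2 fold changes of 2.27 ± 0.12, 4.68 ± 0.11 and 4.58 ± 0.12 (SE). All 6 of these comparisons had an edgeR adjusted p of at most 4.29e-08, and no library overlapped.

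Of the antigen presentation genes outside the gate, RT1-Db1, the beta chain that pairs with RT1-Da, was at 9159, 7711 and 6635 CPM in gated cells, against 12174, 10899 and 11940.3 CPM in the Clec9a set (log2 fold change -0.64 ± 0.08 (SE), edgeR adjusted p = 1.96e-04). In the Fcnb Vcan set it was at 698, 858 and 810.5 CPM (log2 fold change 3.17 ± 0.17 (SE), edgeR adjusted p = 6.04e-04). Ciita, the master activator of MHC class II genes, was at 12.8, 17.6 and 9.10 CPM in gated cells, 31.2, 40.3 and 26.8 CPM in the Clec9a set (log2 fold change -1.35 ± 0.21 (SE), edgeR adjusted p = 8.18e-06) and 1.96, 1.61 and 2.16 CPM in the Fcnb Vcan set (log2 fold change 2.68 ± 0.33 (SE), edgeR adjusted p = 9.75e-06). MHC class II presentation genes were lower in 8 of 13 tested members and higher in 2 against the Clec9a set, and higher in 8 of 15 and lower in 3 against the Fcnb Vcan set. Members and the Clec9a set had to carry MHC class II UMIs, and the Fcnb Vcan set did not. The higher values of RT1-Db1, Ciita and this list over the Fcnb Vcan set therefore partly follow from the choice of cells. Type I interferon response genes had 7 of 20 higher and 6 lower against the Clec9a set, 2 of 25 and 5 against the Fcnb Vcan set, and 4 of 25 and 3 against the C1q-high set. Over all tested genes the shares were 22.4% higher and 22.6% lower, 16.3% and 17.8%, and 21.3% and 22.9% in the same order of sets. The interferon counts against the last 2 sets were near or below these.

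**Figure D4:**
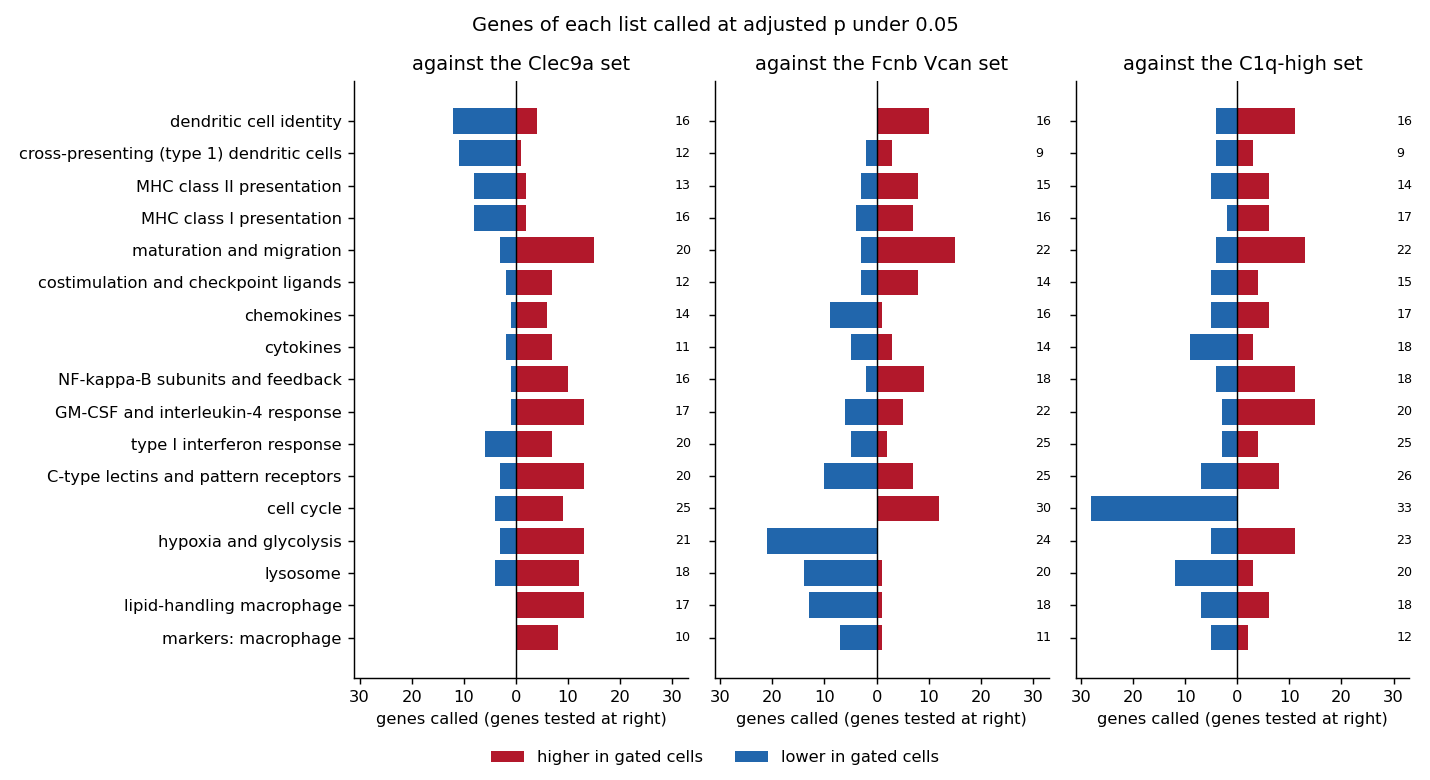
Number of genes of each list called higher (right, red) or lower (left, blue) in gated cells at an edgeR adjusted p under 0.05 against each of the 3 sets, with the number tested at the right edge. Dendritic cell identity genes are 10 higher and 0 lower against the Fcnb Vcan set and 4 higher and 12 lower against the Clec9a set, and hypoxia and glycolysis genes are 0 higher and 21 lower against the Fcnb Vcan set.

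Markers of other cell types were looked for in gated cells. Macrophage markers summed to 2138, 2144 and 3038 CPM in gated cells, with none of the 12 at 0, against 816 to 1514 CPM in the Clec9a set and 7404 to 12875 CPM in the Fcnb Vcan set. Monocyte markers summed to 1007 to 1471 CPM in gated cells and 4125 to 4867 CPM in the Fcnb Vcan set. This sum includes Fcnb and Vcan, which define the Fcnb Vcan set, so its height there is partly built in. Their part in the results was not tested. Neutrophil markers summed to 7.08 to 17.1 CPM, and in the B cell list Ms4a1, Ebf1, Pax5 and Vpreb3 were among the 5 of 7 genes at 0.

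Of 14 T and NK cell markers 8 were at 0, Gzma, Gzmb, Prf1 and Foxp3 among them, and of their summed 104 to 136 CPM in gated cells the adhesion gene Cd2 alone made up 97.0 to 132 CPM. Plasmacytoid markers summed to 82.8, 83.1 and 212 CPM, with Siglech at 0 and Ly6d alone at 139 CPM in infarction 3. Neural, mural and endothelial markers summed to 24.1, 261 and 136 CPM in infarction 1, 2 and 3, and in infarction 2 they were mostly Gfap, with 307 of the 328 Gfap UMIs of all members in 1 cell.

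Gated cells were not uniform. The genes below were chosen after their values were seen, and cells are not replicates, so the splits are described without a test. Genes compared between the 2 sides of a split were named only where the libraries of the sides did not overlap. The same direction in every library is therefore a condition and not a result. Members with a Ccl22 UMI numbered 29, 57 and 31 in infarction 1, 2 and 3, and members without numbered 94, 101 and 30. Their median depth was 11240 and 14421 UMIs. Members without Ccl22 had at least 2 Ccl17 UMIs by the rule.

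Marcksl1, Il4i1 and Tbc1d4 were higher in members with Ccl22 in every library. Marcksl1, an actin-linked protein, was at 422, 287 and 794 CPM in members with Ccl22 in infarction 1, 2 and 3, against 20.5, 20.6 and 22.9 CPM in members without. Il4i1 was at 272, 125 and 222 CPM against 8.44, 9.95 and 4.91 CPM, and Tbc1d4 at 134, 75.2 and 201 CPM against 4.22, 4.97 and 6.54 CPM. All 115 Lad1 UMIs and all 103 Cacnb3 UMIs of the gated cells lay in members with Ccl22. The T cell regulator Cd200 (79.9 against 5.17 CPM over all cells of a side), the interleukin-7 receptor Il7r (155 against 19.6 CPM) and the adenosine receptor Adora2a (109 against 4.35 CPM) had the same direction in all 3 libraries.

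Ccl7, Ccl2 and Spp1 were lower in members with Ccl22. Ccl7 was at 16.1, 20.4 and 21.2 CPM in members with Ccl22, against 513, 263 and 285 CPM in members without. Ccl2 was at 269, 514 and 368 CPM against 2396, 1089 and 1387 CPM, and Spp1 at 818, 1987 and 735 CPM against 6820.2, 3355 and 5729 CPM. Ranges of the 2 sides did not overlap for these 3, which was a condition for naming them. Across the 342 cells Ccl22 had a Spearman rho of 0.56 with Nr4a3 and 0.52 with Il4i1, whereas Ccl17 had -0.06 and -0.17 with them and 0.33 with Mfge8. These cells share 3 libraries and differ in depth.

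**Figure D5:**
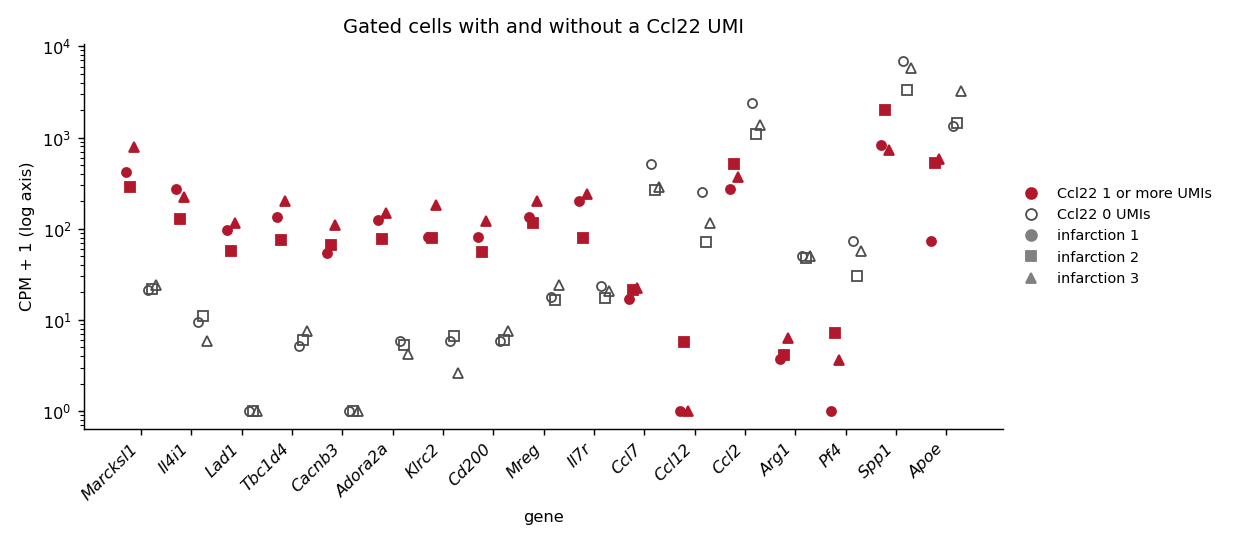
Level of 17 genes, as CPM + 1 on a log axis, in gated cells with at least 1 Ccl22 UMI (filled, 117 cells) and without (open, 225 cells), with 1 point per infarction library. The left 10 genes are higher and the right 7 lower in the cells with Ccl22, in every library, which was a condition for showing them.

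Cd207 marked a small part of the gate. It encodes langerin, the lectin of Langerhans cells and of some dermal and type 1 dendritic cells. A Cd207 UMI was found in 9 of 123, 14 of 158 and 3 of 61 members (7.32%, 8.86% and 4.92%), against 17 of 19103 other kept infarction cells and 0% of oligodendrocyte-marker cells. Of these 26 cells 13 had 5 or more UMIs, and the highest had 158. The summed level was 60.1, 147 and 35.4 CPM in gated cells, against 0 to 2.72 CPM in the Clec9a set (log2 fold change 6.19 ± 0.79 (SE), edgeR adjusted p = 0.00618), 0 to 0.0806 CPM in the Fcnb Vcan set (log2 fold change 10.63 ± 0.30 (SE), edgeR adjusted p = 1.23e-12) and 0 to 0.948 CPM in the C1q-high set (log2 fold change 7.89 ± 0.80 (SE), edgeR adjusted p = 0.00664, but 0.118 without infarction 3).

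Ccl2, Fn1 and Lyz2 were lower in members with Cd207. Ccl2 was at 46.9, 47.2 and 164 CPM in the 9, 14 and 3 members with Cd207, against 2162, 998 and 1024 CPM in members without. Fn1, fibronectin, was at 13.4, 83.9 and 0 CPM against 580.2, 644 and 454 CPM, and the lysozyme gene Lyz2 at 978, 2023 and 4105 CPM against 7418, 7245 and 5329 CPM. Nr4a3 was at 804, 367 and 1445 CPM in members with Cd207 against 288, 154 and 254 CPM, and Klrb1a at 402, 304 and 657 CPM against 117, 101 and 114 CPM. With 3 cells in infarction 3, its value rests on 30447 UMIs.

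Ccr7 was found in 5 of 123, 5 of 158 and 7 of 61 members, with 21 UMIs in all, too few cells for a test, and the levels in them are a description. A Ccl22 UMI was also found in 16 of these 17 cells, so the Ccr7 and Ccl22 splits overlap. In these cells Marcksl1 was at 1120.1, 1299.7 and 1172 CPM, against 62.9, 72.2 and 228 CPM in members without Ccr7. Ebi3, a subunit of interleukin-27 and interleukin-35, was at 267, 248 and 181 CPM against 15.2, 9.53 and 18.98 CPM, and the interferon-induced gene Isg15 at 802, 841 and 2004 CPM against 68.0, 64.2 and 145 CPM. Mmp12, macrophage elastase, was at 50.2, 0 and 10.7 CPM against 545, 409 and 1184 CPM.

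Over all gated cells Mmp12 was at 531, 399 and 1072 CPM in gated cells against 30.6, 32.4 and 40.6 CPM in the Fcnb Vcan set (log2 fold change 4.03 ± 0.31 (SE), edgeR adjusted p = 0.00623, but 0.0909 without infarction 1). It was at 4.54, 11.3 and 10.9 CPM in the C1q-high set (log2 fold change 6.41 ± 0.58 (SE), edgeR adjusted p = 0.0138, but 0.109 without infarction 1 and 0.168 without infarction 3) and 5.56, 52.2 and 15.4 CPM in the Clec9a set, where it was not called (edgeR adjusted p = 0.0686, but 1.17e-06 with DESeq2 and 0.0166 without the library block, and called without infarction 2). Cycling cells were rare: 3 of 123, 5 of 158 and 5 of 61 members had 2 or more Mki67 and Top2a UMIs, and these 13 cells had a median of 27904 UMIs against 13078.5 in members with none.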

How the data were processed

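Single-cell RNA libraries of 3 infarction and 3 sham samples were analysed as deposited matrices of UMI counts per gene and cell barcode. The authors made these counts with Cell Ranger 3.1.0, and CASAVA 1.8 and Seurat 2.3.4 are also named, per the submitters' processing notes. The genome build is not given in the sources used here. The 6 matrices held 44011 barcodes, 25399 genes and 56416475 to 69924334 UMIs per library, and 38685 barcodes were kept.

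UMIs were summed per library and set and tested with edgeR 4.0.16 in R 4.3.3 (quasi-likelihood, TMM, filterByExpr, library as a block because both sets come from the same library), with Benjamini-Hochberg adjustment over all genes tested and calls at an adjusted p under 0.05. The SE given with a log2 fold change is its absolute value divided by the square root of the quasi-likelihood F statistic. It was not estimated by the fit itself. The fit was tested on simulated data. DESeq2 1.42.0 was an alternative. Same-library deviations of the 2 sets correlated at 0.207 to 0.658 over 2157 genes. Doublets were scored with Scrublet in scanpy 1.11.5 and not removed, and cells were thinned to 5000 UMIs for shares.

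The members and gene lists were chosen with earlier results of these data known. For each comparison the text names 10 called genes from each end of the log2 fold changes (mean of at least 20 CPM in the higher set, libraries not overlapping), and members of the lists. Genes described within the gated cells were chosen after their values were seen.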

Additional observations from a re-analysis of the deposited data

How the results depend on the processing

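The share difference was positive in all 11 alternatives, from 1.04 percentage points with at least 5 chemokine UMIs to 2.19 with Ptprc-positive cells as denominator. Leaving out a library gave 1.53 to 2.09. With the replicate number as a block the edgeR adjusted p of the share was 0.000137. DESeq2 called fewer genes, with 931 higher and 833 lower against the Clec9a set, 910.0 and 1044 against the Fcnb Vcan set, and 1506 and 1412 against the C1q-high set. Of its calls, 1751 of 1764, 1935 of 1954 and 2894 of 2918 were also edgeR calls in the same direction. Leaving out a library gave 1366 to 1615 higher and 1323 to 1594 lower against the Clec9a set, 954 to 1515 and 1101 to 1715 against the Fcnb Vcan set, and 1404 to 2132 and 1414 to 2291 against the C1q-high set, with the lowest counts against the last 2 sets without infarction 2. Without the library block, which pairs the 2 sets of a library, the counts were 1426 and 1440.0, 1118 and 1243, and 1973 and 2137. The causes were not tested.

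There were 421 single-gene results and 4193 alternative values of them. Of these values 4065 stayed on the same side of the threshold, 95 were no longer called and 32 became called. Sign changes with no call in either fit were counted among the 4065. With a call in at least 1 of the 2 fits, 1 value changed sign. That was Arg1, arginase 1, against the Clec9a set, with a log2 fold change of 0.81 (edgeR adjusted p = 0.00194) and of -0.25 (adjusted p = 0.605) with at least 5 chemokine UMIs. A call kept without a library or without the filter on low counts shows little. Fits without a library had 1 residual degree of freedom, and edgeR's prior degrees of freedom, 12.96 to 22.85 (median over genes) in the fits reported, were 135 or more in 5 of these 9 fits, infinite for most genes in 2 of the 5, and infinite for most genes in all 3 fits without the filter. P-values there are too small. Of the 421 results, 51 lost a call under at least 1 alternative.

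Tests of Ccr7-positive against Ccr7-negative members (5, 5 and 7 cells, and 1 cell in each library with at least 2 UMIs), of cycling with other members (3, 5 and 5 cells) and of gated cells after infarction with those of sham (0, 0 and 1 cell in sham) were not run, because too few cells were found. Depth limits genes of few UMIs, and counting intervals do not cover differences between animals.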

Other observations

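Counts of further gene groups are to be read against the shares over all tested genes, which were 22.4% higher and 22.6% lower against the Clec9a set, 16.3% and 17.8% against the Fcnb Vcan set, and 21.3% and 22.9% against the C1q-high set. Genes of actin and cell movement were higher in 25 of 31 tested members against the C1q-high set and lower in none, with 11 of 31 higher and 14 lower against the Clec9a set, and 11 of 32 higher and 14 lower against the Fcnb Vcan set. Transcription factors of myeloid cells were higher in 27 of 45 and lower in 5 against the C1q-high set, with 18 of 41 and 13 against the Clec9a set, and 18 of 43 and 13 against the Fcnb Vcan set. C-type lectins and pattern receptors were higher in 13 of 20 and lower in 3 against the Clec9a set, with 7 of 25 and 10 against the Fcnb Vcan set, and 8 of 26 and 7 against the C1q-high set. Receptors of cytokines, chemokines and peptides had 15 of 33 higher and 9 lower, 15 of 35 and 10, and 20 of 36 and 9, against the Clec9a, Fcnb Vcan and C1q-high sets.

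Costimulation and checkpoint ligands had 7 of 12 higher and 2 lower against the Clec9a set, 8 of 14 and 3 against the Fcnb Vcan set, and 4 of 15 and 5 against the C1q-high set, where neither share was far from the background. The same held for the C-type lectins and pattern receptors against the C1q-high set. MHC class I presentation genes had 2 of 16 higher and 8 lower, 7 of 16 and 4, and 6 of 17 and 2 in the same order of sets. Cytokines had 7 of 11 higher and 2 lower, 3 of 14 and 5, and 3 of 18 and 9. Mast cell and basophil markers summed to 1.47 to 4.04 CPM in gated cells, with Cpa3, Ms4a2, Mcpt2, Tpsab1 and Tpsb2 at 0, and B cell markers to 0.489 to 8.09 CPM.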
